A study of Mus musculus with 4 samples.

Results

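The Bcl2 family genes described here, 8 of the 32285 genes in the count tables, were followed through the hepatic CD4+ T cells of mice with diet-induced metabolic dysfunction-associated steatohepatitis (MASH). They were chosen by symbol: *Bcl2*, *Bcl2l1* (which encodes Bcl-xL), *Mcl1*, *Bcl2a1b* and *Bcl2a1d* (copies of the A1 gene), *Bcl2l11* (Bim), *Bbc3* (Puma) and *Bax*. Each symbol matched 1 row in both libraries. CD4+ T cells were sorted by flow cytometry from the livers of male mice given the CD diet, a choline-deficient feed with 60 kcal% fat and 0.1% methionine, for 8 weeks. One group was WT and the other was *Nr4a1* fl/fl *Nr4a2* fl/fl *Cd4-Cre* (dKO), in which Cre recombinase driven by the *Cd4* promoter targets these nuclear receptor genes in T cells. The floxed or Cre status of the WT mice and the age of the mice behind these libraries are not given in the sources used here. Each genotype is 1 library pooled from 2 mice, which the files do not tell apart. No test between groups was therefore possible, cells were never used as replicates, and every interval below covers counting error only.

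Members of the Bcl2 family decide whether the outer membrane of the mitochondrion stays intact. Bcl2, Bcl-xL, Mcl1 and A1 are guards that keep it closed by binding their pro-apoptotic relatives. Bim and Puma are BH3-only proteins that occupy the guards, and Bax is an effector that forms the pore through which cytochrome c leaves to activate Apaf1 and the caspases. In T cells, *Bcl2* is maintained by interleukin 7 signals in resting cells, *Bcl2l1* and A1 are induced by antigen receptor and NF-κB signals, *Mcl1* is needed throughout T cell life, Tregs included, and Bim removes lymphocytes that lose cytokine support. Puma is a target of p53 and of Foxo3.

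The A1 locus is duplicated in the mouse, and its copies are so alike that counts of *Bcl2a1b* and *Bcl2a1d* are uncertain at the level of the single copy. In the GENCODE M21 transcripts the coding sequence of each copy was 519 bases long, *Bcl2a1b* and *Bcl2a1d* were identical at 513 of them (98.8%), and 47.0% of all stretches of 60 bases in *Bcl2a1b* occurred unchanged in *Bcl2a1d*. A short read that falls in such a stretch cannot be assigned to either copy. The first 90 coding bases are shown because the reads of a 5′ kit lie near the start of the transcript, with capitals at each base that differs from the base shared by the other 2 copies.
*Bcl2a1a*: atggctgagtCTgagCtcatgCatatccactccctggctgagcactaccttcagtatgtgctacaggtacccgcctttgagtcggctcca
*Bcl2a1b*: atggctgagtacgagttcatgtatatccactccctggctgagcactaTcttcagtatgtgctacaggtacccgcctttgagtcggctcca
*Bcl2a1d*: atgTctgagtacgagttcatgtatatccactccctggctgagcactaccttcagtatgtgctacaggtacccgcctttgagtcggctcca
Within these bases *Bcl2a1b* and *Bcl2a1d* differed at 2 positions, and *Bcl2a1b* and *Bcl2a1a* at 5. *Bcl2a1a* is also a row of the count tables but held 36 unique molecular identifiers (UMIs, each marking 1 captured RNA molecule) over all WT cells and 107 over all dKO cells, against 7016 and 8373 for *Bcl2a1b*.

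The upstream sequences of these copies are likewise close. The stretches from 250 to 71 bases before the RefSeq start sites (build GRCm38.p6) are shown because *Bcl2a1b* and *Bcl2a1d* were each other's closest genes in level, as given below. Capitals mark the match to TGANTCA, taken here as the AP-1 motif with any base at its centre. This pattern reads the same on both strands, but the matched letters, with A at the centre in both copies, do not.
*Bcl2a1b*, chr9:89199023-89199202, plus strand: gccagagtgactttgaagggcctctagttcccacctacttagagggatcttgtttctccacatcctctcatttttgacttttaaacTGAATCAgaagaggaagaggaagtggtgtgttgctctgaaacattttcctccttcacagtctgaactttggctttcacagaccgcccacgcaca
*Bcl2a1d*, chr9:88731921-88732100, minus strand: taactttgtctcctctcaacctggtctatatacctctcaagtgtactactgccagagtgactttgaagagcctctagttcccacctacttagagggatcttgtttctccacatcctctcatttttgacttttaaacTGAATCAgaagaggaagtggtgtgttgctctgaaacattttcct
The best local alignment of these stretches spanned 136 columns, of which 94.9% were identical. The AP-1 match began 164 bases before the start site of *Bcl2a1b* and 114 bases before that of *Bcl2a1d*. This motif occurred in 7.81% of the 32817 mouse promoters of 300 bases in the same table.

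The members lie at 8 separate places (GRCm38, GENCODE M21 gene bodies). *Bcl2* spans chr1:106538178-106714274 on the minus strand, 176097 bases, and overlaps *Mir3473f* and *Gm37053* on its own strand, so that not every read from within it is certain to be *Bcl2* mRNA. *Bcl2l1* lies on the minus strand at chr2:152780668-152831728, *Bcl2l11* on the plus strand at chr2:128126038-128162547 and *Mcl1* on the plus strand at chr3:95658788-95663176. *Bbc3* is at chr7:16308393-16318205 on the plus strand. *Bax*, at chr7:45461697-45466898 on the minus strand, overlaps *Gm45808* on its own strand. *Bcl2a1d* (chr9:88723285-88731914, minus strand) and *Bcl2a1b* (chr9:89199209-89207827, plus strand) flank *Bcl2a1a*, and *Bcl2a1b* overlaps *Gm29094* on its own strand.

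After quality filters 10556 WT and 17462 dKO cells remained, with 23437516 and 37794986 UMIs and medians of 1679 and 1685 UMIs per cell. A T cell receptor beta (TRB) chain was read in 3455 and 4096 of them, and 245 cell barcodes occurred in both libraries, 2.31% of the WT and 1.39% of the dKO barcodes. RNA of the targeted genes was higher in the library labelled dKO. *Nr4a1* stood at 725 CPM (UMIs of a gene per 1000000 UMIs) over all cells of the library labelled WT and at 1659 CPM in that labelled dKO, and *Nr4a2* at 183 and 306 CPM. In Foxp3 T cells *Nr4a1* stood at 1026 and 2239 CPM. The counts do not say which exon a molecule came from, so RNA from outside the floxed segments is included and these levels do not check the deletion, and each direction given below as WT or dKO rests on the label. By flow cytometry the study reports a higher frequency of Foxp3+ Tregs in livers of dKO mice on this diet. Foxp3 T cells, defined below, numbered 178 in the library labelled WT and 963 in that labelled dKO. An exchange of labels was not tested. *Cd4* was also higher in dKO, at 205 and 887 CPM in Foxp3 T cells, 262 and 809 CPM in T cells without lineage genes and 229 and 341 CPM in plasmacytoid dendritic-like cells, and its part in the differences between libraries was not tested.

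Cells were placed in classes by marker genes and a productive TRB chain, never by the 8 genes themselves. T cells outside the cell cycle with a *Foxp3* UMI, the factor that defines Tregs, numbered 178 in the WT and 963 in the dKO library. Cycling T cells with *Foxp3*, 41 and 135, were set apart and are not described further, being under 50 in WT. Their *Bcl2* level was 31.4 CPM (13.6 to 61.9) in WT and 25.9 CPM (16.2 to 39.2) in dKO. T cells with no *Foxp3* UMI but at least 3 of the Treg-associated genes *Ctla4*, *Tigit*, *Ikzf2*, *Il2ra*, *Tnfrsf4* and *Tnfrsf9* numbered 175 and 1016 and were kept apart. Naive-like T cells numbered 679 and 272, *Ifng* T cells 651 and 238, *Il17a* or *Il17f* T cells 60 and 127, T cells without any of these lineage genes 1095 and 800, and cycling T cells without *Foxp3* 294 and 171. Those T cells with Treg-associated genes also lacked *Ifng*, *Il17* and the naive-like genes, since these gates came first. The naive-like, *Ifng*, *Il17* and remaining T cells, with 12 and 2 cells that held both *Ifng* and *Il17*, made up the Foxp3-negative T cells, 2497 in WT and 1439 in dKO. This group can include Tregs whose *Foxp3* RNA was not read. Despite the CD4 sort, 1185 and 3637 cells were plasmacytoid dendritic-like (at least 2 *Siglech* UMIs) and 340 and 453 held macrophage and monocyte genes. A class of 91 and 94 cells without a receptor chain was gated on *Il22*, *Il23r*, *Ccr6*, *Kit* and the like, genes of type 3 innate lymphoid cells (ILC3). Its summed *Cd3e*, *Cd3d* and *Cd3g* level was 1149.5 and 1648 CPM and its summed Treg-associated genes 1857 and 3089 CPM, so it is called here by its gate and given no cell type. T cells with under 8% ribosomal protein counts were set aside, as were 227 and 344 cells with a TRB chain and genes of another lineage. A further 5434 and 9116 cells were in no class.

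*Bcl2*, the guard of resting lymphocytes, was high in naive-like, *Ifng* and remaining T cells and lower in Foxp3, *Il17* and cycling T cells. In the WT library its level was 201 CPM (181 to 222) in naive-like T cells, 208 CPM (187 to 230.4) in *Ifng* T cells and 175 CPM (157 to 194) in T cells without lineage genes, with exact 95% Poisson intervals in brackets. It was 106 CPM (80.2 to 138) in Foxp3 T cells, 72.3 CPM (36.1 to 129) in *Il17* T cells and 70.9 CPM (57.4 to 86.5) in cycling T cells. In the dKO library the same classes stood at 207, 179, 175, 39.8, 29.0 and 27.6 CPM. Within each library the naive-like, *Ifng* and remaining T cells had overlapping intervals, as did the Foxp3, *Il17* and cycling T cells, and these sets did not overlap each other in either library. T cells with Treg-associated genes lay between, at 141 (107 to 181) and 77.4 (64.9 to 91.7) CPM. The highest WT level was in the receptor-negative cells with ILC3 genes, 359 CPM (292 to 437), with 177 CPM (126 to 241) in dKO. The lowest was in plasmacytoid dendritic-like cells, 28.1 (22.6 to 34.7) and 17.0 (14.7 to 19.5) CPM.

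*Bcl2l1* was ordered differently. Foxp3 T cells were highest in both libraries, at 83.4 CPM (60.6 to 112) in WT and 137 CPM (121 to 153) in dKO, followed by T cells with Treg-associated genes at 70.4 (47.5 to 100.5) and 124 (108 to 141) CPM. The intervals of these neighbours overlapped in each library. *Ifng* T cells held 47.8 (38.2 to 59.1) and 74.1 (51.3 to 104) CPM, T cells without lineage genes 47.0 (38.1 to 57.4) and 42.0 (31.1 to 55.3) CPM, and naive-like T cells 16.1 (10.97 to 22.9) and 27.7 (15.8 to 44.9) CPM. The *Il17* T cells had only 4 and 3 *Bcl2l1* UMIs. Plasmacytoid dendritic-like cells were lowest, at 7.67 (4.92 to 11.4) and 10.2 (8.47 to 12.2) CPM.

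*Mcl1*, which encodes a short-lived guard, varied little across T cells. In the T cell classes outside the cell cycle it ranged from 296 to 359 CPM in the WT library and from 276 to 411 CPM in the dKO library, with *Il17* T cells lowest and naive-like T cells highest in both. Cycling T cells lay lower, at 197 CPM (174 to 222) in WT and 184.2 CPM (157 to 214) in dKO. Myeloid cells were highest of the described classes, at 502 CPM (457 to 549) and 590.3 CPM (552 to 630.2), and plasmacytoid dendritic-like cells stood at 325 (305 to 345) and 299.7 (290.0 to 309.7) CPM.

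The A1 copies were low in naive-like T cells and lowest in plasmacytoid dendritic-like cells. *Bcl2a1b* stood at 159.9 CPM (143 to 179) in WT and 157 CPM (127 to 193) in dKO naive-like T cells, against 483 (453 to 514) and 387 (352 to 424) CPM in T cells without lineage genes. On the log2 scale this ratio was -1.59 (-1.78 to -1.41) in WT and -1.30 (-1.64 to -0.97) in dKO. Of all genes through the filter described below, 20.7% and 22.1% differed by at least 1.5-fold between these classes in WT and dKO, and so did 4 and 3 of the 8 members, all of which passed the filter: *Bcl2a1b*, *Bcl2a1d* and *Bcl2l1*, all lower in naive-like cells, and in WT *Bbc3*, higher at 0.62. In plasmacytoid dendritic-like cells *Bcl2a1b* was at 34.8 and 27.2 CPM and *Bcl2a1d* at 10.5 and 8.94 CPM. Summed *Cd3* RNA in those cells was 278 and 266 CPM, against 2846 and 3202 CPM in T cells without lineage genes, and the part of T cell RNA in these low values was not tested. *Bcl2a1b* made up 76.7% and 77.8% of the summed UMIs of both copies over all WT and dKO cells. In the 10 described classes this share lay between 70.6% and 81.1% in WT and between 72.0% and 81.0% in dKO, so the 2 counts kept nearly the same proportion.

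**Figure D1:**
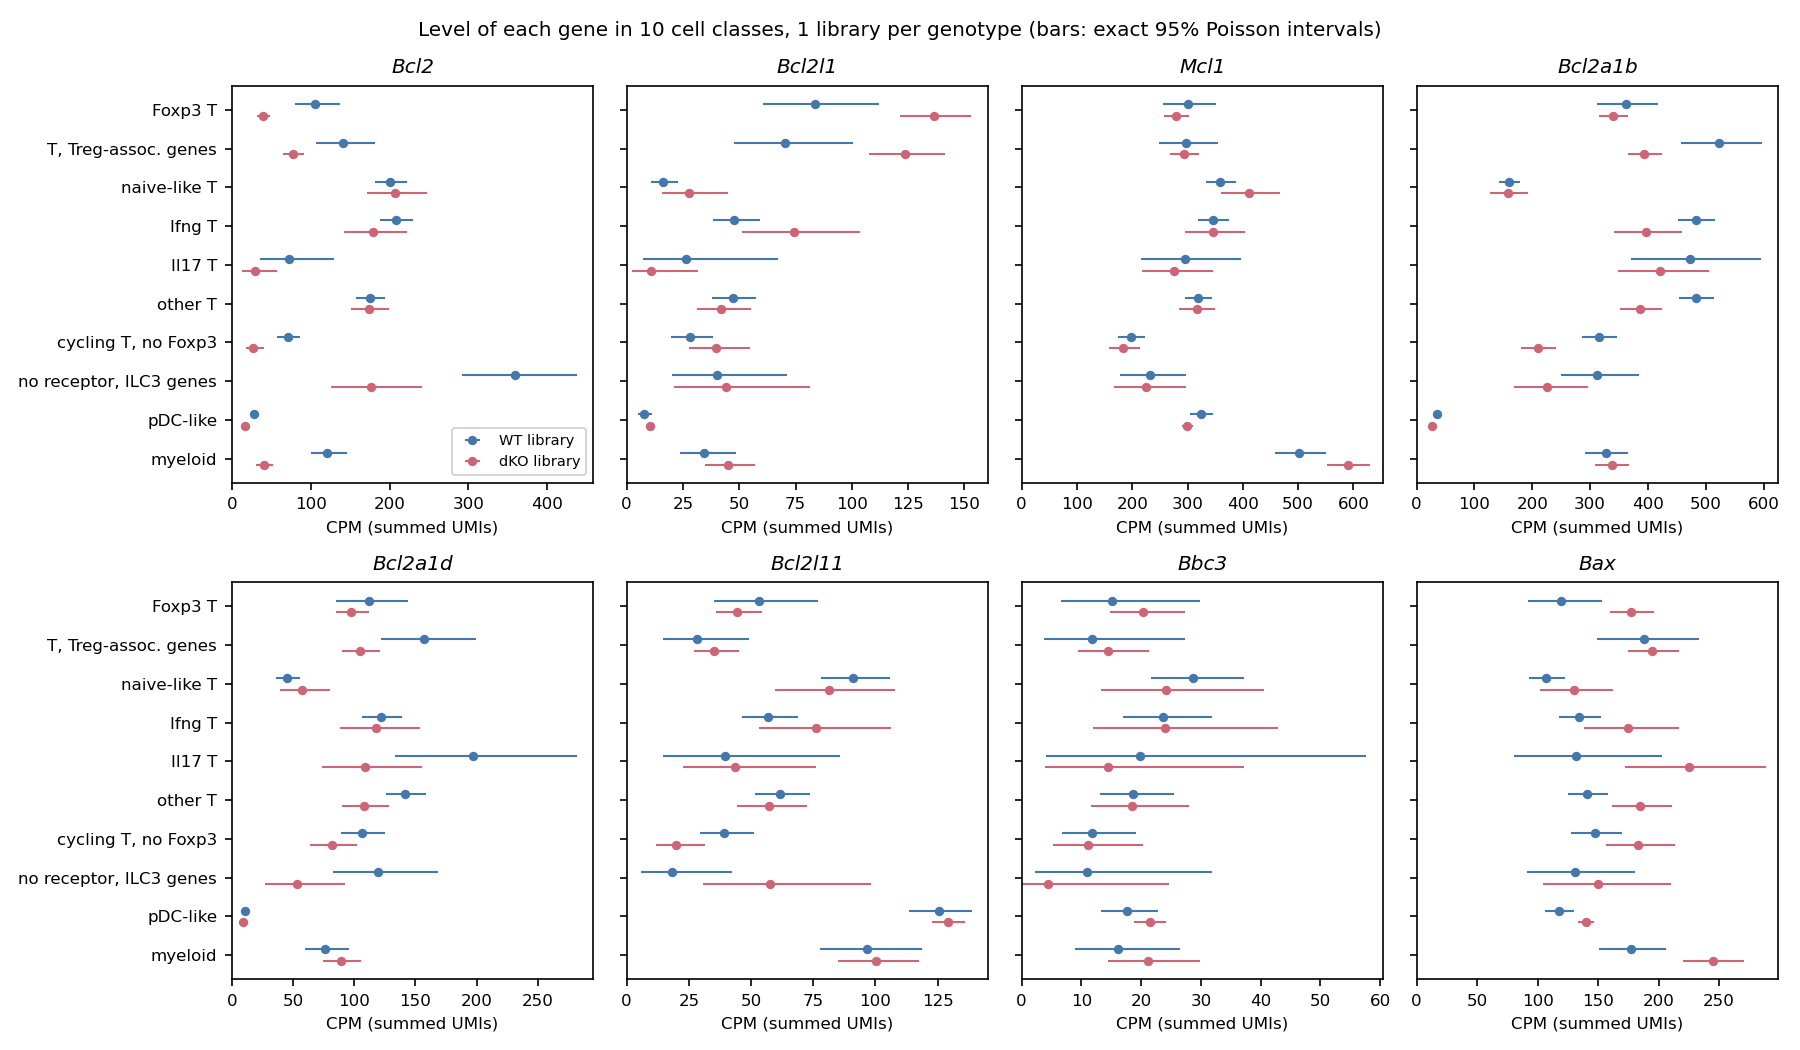
Level of each of the 8 genes (x axis, CPM of summed UMIs) in 10 cell classes (y axis) of the WT (blue) and dKO (red) library, with exact 95% Poisson intervals as bars. *Bcl2l1* is highest in Foxp3 T cells, where *Bcl2* is lower than in naive-like T cells, *Mcl1* is highest in myeloid cells, and *Bcl2l11* is highest in plasmacytoid dendritic-like cells (pDC-like).

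Among the BH3-only genes, *Bcl2l11* was highest in plasmacytoid dendritic-like cells, at 126 CPM (114 to 139) in WT and 129 CPM (123 to 136) in dKO. Myeloid cells followed with 96.5 (77.6 to 119) and 100.2 (84.9 to 118) CPM and naive-like T cells with 91.1 (78.1 to 106) and 81.2 (59.7 to 108) CPM, and the myeloid and naive-like intervals overlapped. T cells without lineage genes held 61.7 (51.4 to 73.5) and 57.1 (44.3 to 72.3) CPM and Foxp3 T cells 53.1 (35.3 to 76.7) and 44.4 (36.0 to 54.3) CPM. T cells with Treg-associated genes stood at 28.2 (14.6 to 49.2) and 35.2 (27.0 to 45.3) CPM. Relative to T cells without lineage genes, the log2 ratio of *Bcl2l11* in plasmacytoid dendritic-like cells was 1.02 (0.73 to 1.33) in WT and 1.18 (0.83 to 1.55) in dKO. Differences of at least 1.5-fold were common between these cell types, 49% of genes in WT and 48.3% in dKO, and 5 of 7 members through the filter had one in WT and 5 of 8 in dKO: *Bcl2l11* higher, and *Bcl2*, *Bcl2l1* and both A1 copies lower. *Bbc3* had at most 55 UMIs in a described T cell class, and in the WT library its level ranged from 10.9 CPM in the receptor-negative cells with ILC3 genes to 28.6 CPM (21.6 to 37.3) in naive-like T cells.

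*Bax*, the effector, was present in every described class, from 107 to 188 CPM in WT and from 129.6 to 245 CPM in dKO. Its level in dKO was above that in WT in all 10 classes, with log2 ratios from 0.05 in T cells with Treg-associated genes to 0.77 in *Il17* T cells. Only the *Il17* value passed 1.5-fold, in a class of 60 WT cells with 20 *Bax* UMIs. Over all cells *Bax* stood at 137 CPM (133 to 142) in WT and 174 CPM (169.6 to 178) in dKO.

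The first comparison set Foxp3 T cells against the Foxp3-negative T cells of the same library. A gene counted as called when it differed by at least 1.5-fold, among genes with at least 20 CPM and 10 UMIs in the higher group. In WT, *Bcl2* stood at 106 CPM in Foxp3 and at 191 CPM (180.3 to 203) in Foxp3-negative T cells, a log2 ratio of -0.85 (-1.26 to -0.46). In dKO it stood at 39.8 against 167 CPM (151 to 183), a log2 ratio of -2.07 (-2.42 to -1.73). *Bcl2l1* went the other way, with 83.4 against 36.9 CPM (32.2 to 42.1) in WT (log2 ratio 1.18, 0.67 to 1.65) and 137 against 41.1 CPM (33.5 to 49.8) in dKO (1.73, 1.41 to 2.07). Foxp3 T cells of both libraries thus held less *Bcl2* and more *Bcl2l1* RNA per UMI than Foxp3-negative T cells, and the intervals of the levels did not overlap for either gene. In WT 3 of the 8 genes were called, *Bcl2l1* higher, *Bcl2* and *Bbc3* lower, beside 20.4% of the 6574 genes through the filter. In dKO 2 were called, *Bcl2l1* higher and *Bcl2* lower, beside 19% of 6382 genes.

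The *Bbc3* call rested on 8 UMIs in WT Foxp3 T cells, and its interval ran from -1.87 to 0.39. The log2 ratio of *Bcl2l11* was -0.38 (-0.99 to 0.17) in WT and -0.54 (-0.92 to -0.17) in dKO, short of the fold. That of *Mcl1* was -0.17 (-0.41 to 0.06) and -0.28 (-0.43 to -0.13). *Bcl2a1b*, *Bcl2a1d* and *Bax* were near 0, from -0.10 to 0.05 in WT and from -0.01 to 0.02 in dKO. With the naive-like cells left out of the Foxp3-negative group, a choice made after seeing the data, the log2 ratio in WT was -0.81 for *Bcl2* and 0.83 for *Bcl2l1*. With T cells that hold Treg-associated genes added to that group, likewise chosen after seeing the data, the *Bcl2l1* ratio in dKO was 0.87, and the *Bcl2* ratio -1.71. As a mean over clonotypes the WT *Bcl2* ratio was -0.54, which lost the call, and the WT *Bcl2l1* ratio 1.82. Without marked doublets the dKO *Bcl2* ratio was -3.25.

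**Figure D2:**
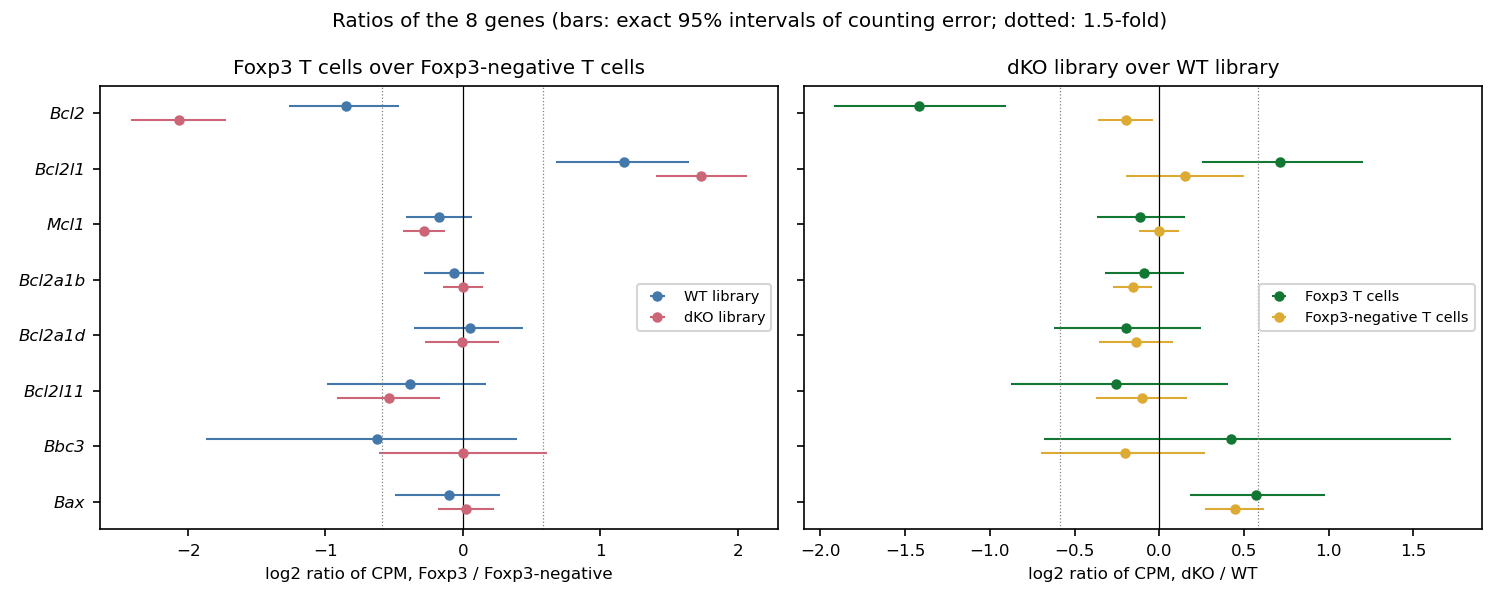
Log2 ratios of CPM (x axes) for the 8 genes (y axis), Foxp3 over Foxp3-negative T cells in each library at left and the dKO over the WT library in each of these classes at right. Bars are exact 95% intervals of counting error and dotted lines mark 1.5-fold. At left *Bcl2* lies below and *Bcl2l1* above the fold in both libraries, and at right they do so in Foxp3 T cells but not in Foxp3-negative T cells.

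The second comparison set the libraries against each other within a class. In Foxp3 T cells *Bcl2* was at 106 CPM (80.2 to 138) in WT and 39.8 CPM (31.8 to 49.2) in dKO (log2 ratio -1.42, -1.92 to -0.90), and *Bcl2l1* at 83.4 and 137 CPM (0.71, 0.25 to 1.20). These were the 2 members called of 8, 1 higher and 1 lower, beside 27.4% of the 6675 genes through the filter. *Bax* (0.57, 0.18 to 0.98) was just short of the fold, and passed it with TMM scaling (0.64). *Mcl1* (-0.11), *Bcl2a1b* (-0.09), *Bcl2a1d* (-0.20) and *Bcl2l11* (-0.26) had intervals that held 0, and *Bbc3* (0.43) rested on 8 and 44 UMIs. The median log2 ratio of the 8 genes was -0.10, against -0.0017 over all genes through the filter. The same Foxp3 T cells differed in more than these genes. Their naive markers, *Ccr7*, *Lef1*, *Dapl1* and *S1pr1* among them, summed to 650.3 CPM in WT and 202 CPM in dKO, and their 6 Treg-associated genes to 4205 and 7444 CPM. The sum does not describe each of the 6, since *Il2ra* was called lower in dKO, as given below. Markers of plasmacytoid dendritic cells summed to 7.58 and 108 CPM in the same Foxp3 T cells. The part of these in the *Bcl2* and *Bcl2l1* values was not tested.

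In Foxp3-negative T cells no member was called, beside 9.7% of 6250 genes. *Bcl2* stood at 191 CPM in WT and 167 CPM in dKO (-0.20, -0.36 to -0.04), *Bcl2l1* at 36.9 and 41.1 CPM (0.15, -0.20 to 0.50) and *Bax* at 128 and 175 CPM (0.45, 0.27 to 0.62). *Mcl1* was at 339 and 339 CPM. With T cells that hold Treg-associated genes included, a choice made after seeing the data, *Bcl2l1* had a log2 ratio of 0.93 and was called. Whether the library difference of *Bcl2* differs between Foxp3 and Foxp3-negative T cells could not be tested with 1 library per genotype, and the counting intervals of the 2 ratios did not overlap. When T cells were taken by a *Cd3* UMI in place of a TRB chain, *Bcl2* in Foxp3 T cells stood at 86.7 CPM (69.5 to 107) and 41.4 CPM (36.4 to 46.9). In these cells *Bcl2l1* stood at 88.7 and 131 CPM, a log2 ratio of 0.57 that did not pass the fold, and as a mean over clonotypes it was 0.44. Without marked doublets 148 of 178 WT and 741 of 963 dKO Foxp3 T cells were left. In these the *Bcl2* ratio was -2.01, beyond the counting interval of the main value.

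Class by class, *Bcl2* was lower in the dKO library in some T cells and nearly level in others. In naive-like T cells (0.05, -0.26 to 0.34), T cells without lineage genes (-0.003, -0.26 to 0.25) and *Ifng* T cells (-0.22, -0.58 to 0.13) the interval of the log2 ratio held 0, as it did in *Il17* T cells (-1.32, -2.83 to 0.13), where few UMIs were read. It was -0.86 (-1.31 to -0.40) in T cells with Treg-associated genes, -1.36 (-2.06 to -0.71) in cycling T cells and -1.02 (-1.59 to -0.48) in receptor-negative cells with ILC3 genes. The summed Treg-associated genes stood at 3525 CPM in WT and 7458 CPM in dKO in the T cells gated on them, where naive markers were at 300.4 and 108 CPM, and at 842 and 2183 CPM in cycling T cells. Markers of plasmacytoid dendritic cells summed to 4.69 and 75.1 CPM in T cells with Treg-associated genes and to 6.64 and 21.0 CPM in cycling T cells. In receptor-negative cells with ILC3 genes they summed to 3.63 and 84.0 CPM. The part of these markers in the *Bcl2* values was not tested. The *Bcl2* ratio was also below 0 in cells that are not T cells, at -0.73 (-1.10 to -0.35) in plasmacytoid dendritic-like and -1.57 (-2.04 to -1.11) in myeloid cells. Those myeloid cells carried T cell RNA, with summed *Cd3* at 1107 and 869 CPM, and their neutrophil markers differed between libraries, with 61.1 CPM in WT and 8425 CPM in dKO. The part of either in the myeloid *Bcl2* value was not tested.

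The background of these class contrasts, the share of all genes called, was 30.2% in T cells with Treg-associated genes, 21.6% in naive-like, 24.3% in *Ifng*, 39.7% in *Il17*, 14.3% in the remaining and 20.3% in cycling T cells. It was 35.4% in receptor-negative cells with ILC3 genes, 7.62% in plasmacytoid dendritic-like and 25.4% in myeloid cells. The members called in these 9 classes were, in that order, 3 of 7 through the filter, 1 of 8, 1 of 8, 3 of 6, 0 of 7, 3 of 7, 3 of 7, 1 of 6 and 1 of 8. *Bcl2* was among them in 6 classes, lower in dKO each time, and it was the only member called in the plasmacytoid dendritic-like and the myeloid cells.

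*Bcl2l1* was called higher in dKO in T cells with Treg-associated genes (0.81, 0.26 to 1.42), naive-like T cells (0.78, -0.19 to 1.69, on 31 and 16 UMIs) and *Ifng* T cells (0.63, 0.01 to 1.22), and was not called in T cells without lineage genes (-0.16, -0.69 to 0.34). The summed Treg-associated genes also differed between libraries, at 518 and 1857 CPM in naive-like and 896 and 2863 CPM in *Ifng* T cells. Markers of plasmacytoid dendritic cells summed to 41.7 and 124 CPM in naive-like and 18.0 and 100 CPM in *Ifng* T cells. The part of these markers in the *Bcl2l1* values was not tested. *Mcl1* ranged only from -0.12 in plasmacytoid dendritic-like cells to 0.23 in myeloid cells. *Bcl2l11* was called in 2 classes and in opposite directions, lower in dKO in cycling T cells (39.1 and 19.8 CPM) and higher in the receptor-negative cells with ILC3 genes (18.1 and 57.4 CPM, on 5 and 13 UMIs). The log2 ratio of *Bcl2a1b* lay between -0.59 in cycling T cells, where it was called, and 0.04 in myeloid cells. *Bcl2a1d* was called lower in dKO in T cells with Treg-associated genes (157 and 105 CPM) and *Il17* T cells (197 and 109 CPM). The same held in receptor-negative cells with ILC3 genes (119.7 and 53.0 CPM, on 33 and 12 UMIs).

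**Figure D3:**
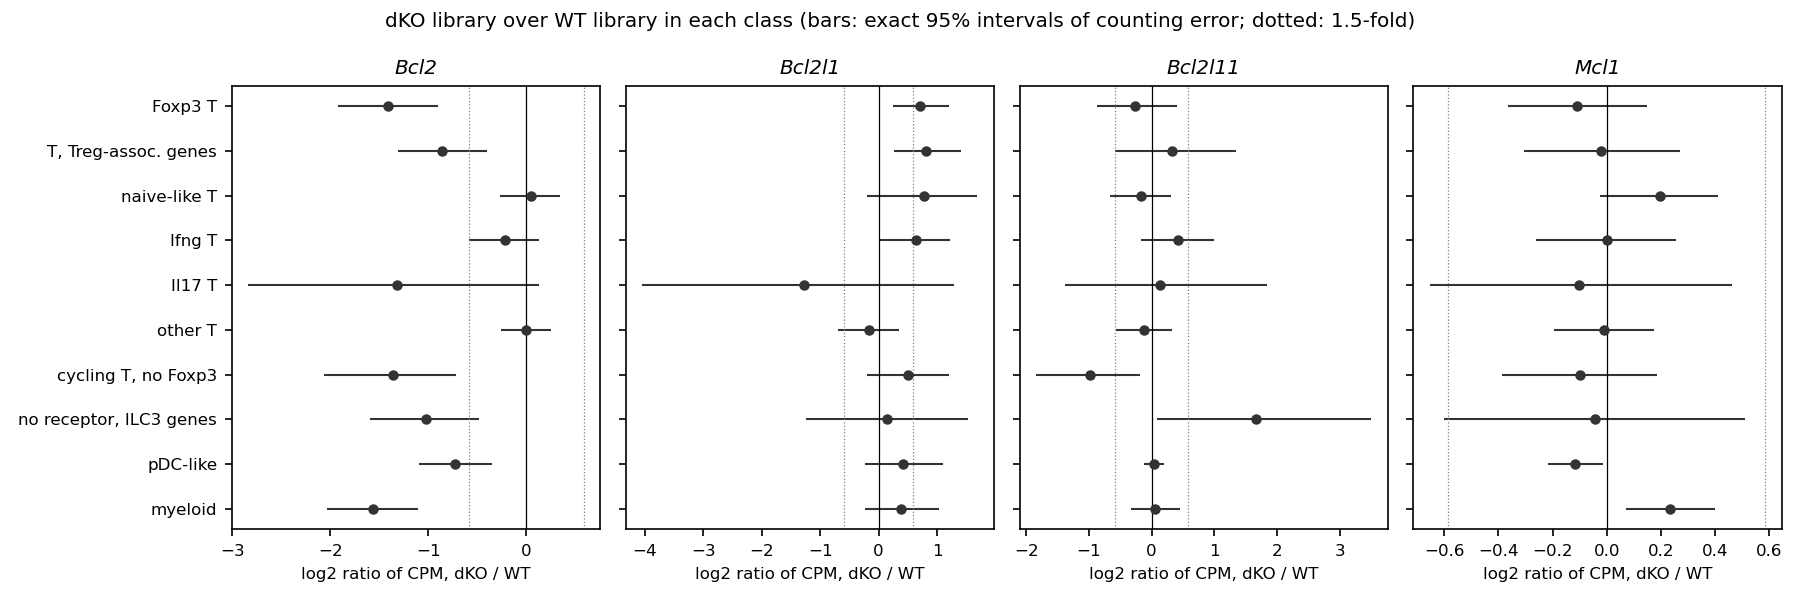
Log2 ratio of CPM, dKO over WT library (x axes, each with its own range), of *Bcl2*, *Bcl2l1*, *Bcl2l11* and *Mcl1* in each of 10 classes (y axis). Bars are exact 95% intervals of counting error and dotted lines mark 1.5-fold. *Bcl2* lies near 0 in naive-like and other T cells and below the fold in 7 classes, while *Mcl1* stays within the fold in all 10.

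Since Bcl2 is among the guards that Bim occupies, the share of *Bcl2l11* among the summed *Bcl2l11* and *Bcl2* UMIs was compared across classes. It was 26.6% (24.4 to 28.9) in WT and 27.9% (24.3 to 31.8) in dKO Foxp3-negative T cells, with exact 95% binomial intervals in brackets. In Foxp3 T cells it was 33.3% (23.4 to 44.5) in WT and 52.7% (45.2 to 60.2) in dKO, so that the Foxp3 T cells of the dKO library stood above its Foxp3-negative T cells, whereas the WT intervals overlapped. This share restates the *Bcl2* difference, since in dKO *Bcl2l11* itself was lower in Foxp3 (44.4 CPM) than in Foxp3-negative T cells (64.6 CPM). T cells with Treg-associated genes had 16.7% (8.92 to 27.3) and 31.3% (24.8 to 38.3). Plasmacytoid dendritic-like cells had the highest shares, 81.7% (78.0 to 85.1) and 88.4% (86.8 to 89.9), and the WT cells with ILC3 genes the lowest, 4.81% (1.58 to 10.9). In myeloid cells the share was 44.3% in WT and 71.0% in dKO. The share compares captured RNA molecules of each gene between classes and is not a ratio of proteins. It also leaves out the other guards that Bim can occupy. *Bcl2l1* held 44 UMIs in WT and 295 in dKO Foxp3 T cells, against 28 and 96 of *Bcl2l11*. In Foxp3-negative T cells *Bcl2l1* held 219 and 103 UMIs, against 411 and 162 of *Bcl2l11*. The higher share in dKO Foxp3 T cells thus sets *Bcl2l11* against *Bcl2* alone, not against all guards.

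**Figure D4:**
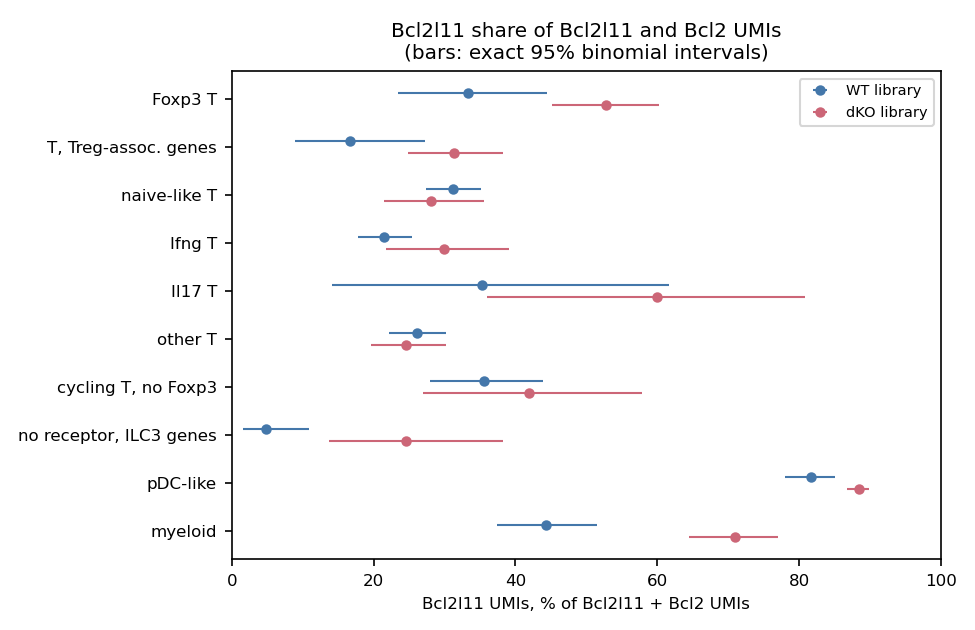
Share of *Bcl2l11* UMIs among *Bcl2l11* and *Bcl2* UMIs (x axis, percent) in 10 classes (y axis) of both libraries, with exact 95% binomial intervals. Plasmacytoid dendritic-like cells (pDC-like) reach 81.7% and 88.4%, and Foxp3 T cells 33.3% in WT and 52.7% in dKO.

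Shares of cells with a UMI depend on depth, so they were read after thinning each cell to 1000 UMIs. Among 172 WT and 861 dKO Foxp3 T cells of that depth (6 and 102 shallower cells were left out), 4.65% (2.03 to 8.96) and 3.48% (2.36 to 4.94) had a *Bcl2* UMI and 9.30% (5.41 to 14.7) and 12.7% (10.5 to 15.1) a *Bcl2l1* UMI. *Mcl1* was read in 30.2% (23.5 to 37.7) and 25.2% (22.3 to 28.2) of them and *Bcl2a1b* in 22.7% (16.6 to 29.7) and 25.8% (22.9 to 28.8), and before thinning in 54.5% and 41.4% for *Mcl1* and 48.3% and 42.9% for *Bcl2a1b*. At this depth the intervals of the libraries overlapped for *Bcl2* and for *Bcl2l1*, unlike those of their levels in CPM. Mean thinned *Bcl2* UMIs per Foxp3 T cell were 0.0698 in WT and 0.0383 in dKO. In T cells without lineage genes the shares were 14.9% and 18.0% for *Bcl2* and 4.31% and 4.12% for *Bcl2l1*. Before thinning, 18.0% of WT and 6.65% of dKO Foxp3 T cells had a *Bcl2* UMI, at median depths of 2622 and 1926 UMIs. After thinning, *Foxp3* itself was read in 61.0% of WT and 63.9% of dKO Foxp3 T cells. Tregs with *Foxp3* missed can therefore lie among the Foxp3-negative T cells, whose median depths were 2048 and 1561 UMIs. Their part was not tested. As a measure of free RNA, *Siglech*, a gene of plasmacytoid dendritic cells, was found in 0.581% and 0.348% of thinned Foxp3 T cells and in at most 1.79% of any described class other than the plasmacytoid dendritic-like. The last value is from myeloid cells, whose gate leaves out cells with more than 1 *Siglech* UMI. Before T cells were gated, 227 WT and 344 dKO cells with a TRB chain and genes of another lineage were set aside. The *Siglech* share in T cells may therefore be held down by the gate as well. In the other direction *Foxp3* was found in 0.515% and 1.87% of plasmacytoid dendritic-like cells, and in a larger share of myeloid cells, given below. These genes gauge only the free RNA of their own source cells. In plasmacytoid dendritic-like cells *Bcl2* (2.16% and 1.24%), *Bcl2l1* (1.03% and 0.634%), *Bcl2a1b* (2.47% and 1.63%) and *Bcl2a1d* (0.927% and 0.716%) were close to these levels, at which expression and free RNA cannot be told apart, whereas *Bcl2l11* was found in 10.4% and 11.5% of them. The values of these 4 genes in plasmacytoid dendritic-like cells given above, with the *Bcl2* ratio between libraries and the *Bcl2l11* share, carry this limit. *Bbc3* in the same cells (1.54% and 2.12%) and *Bcl2l1* in naive-like T cells (1.51% and 1.95%) lay near these levels too. So did *Bcl2l11* in WT T cells with Treg-associated genes (1.79%) and dKO cycling T cells (2.34%), and *Bcl2* in dKO *Il17* T cells (2.44%). *Bcl2l1* in dKO *Il17* T cells (0.813%) and dKO receptor-negative cells with ILC3 genes (1.11%), and *Bbc3* in most classes, lay there as well. *Foxp3* was found in 2.51% of WT and 6.81% of dKO myeloid cells. In those cells *Bcl2* in dKO (2.82%) and *Bcl2l1* in both libraries (2.15% and 4.46%) were not above the *Foxp3* share of the same library. The levels and ratios of these genes in these classes carry the same limit.

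The third comparison followed the genes by clone size, cells with the same leading TRA and TRB chains being counted as 1 clonotype. The WT library held 1449 clonotypes, of which 1276 had 1 cell and 19 had 10 or more, and the dKO library 1386, of which 1167 had 1 cell and 19 had 10 or more. In Foxp3-negative T cells of WT, *Bcl2l11* was at 89.2 CPM (78.0 to 102) in 907 cells of single-cell clonotypes, 55.1 CPM (39.4 to 75.1) in clonotypes of 2 to 9 cells and 20.8 CPM (11.1 to 35.5) in 296 cells of 19 clonotypes of 10 or more. The log2 ratio of the expanded over the single cells was -2.10 (-3.03 to -1.30), and -1.47 with clones of 5 or more cells taken as expanded. *Bcl2l1* was at 26.1, 35.8 and 63.9 CPM over the same bins (1.29, 0.69 to 1.88). *Bcl2a1b* (302, 604 and 469.5 CPM) and *Bcl2a1d* (86.1, 185 and 159.7 CPM) were also called higher, *Bcl2* (198, 129.5 and 142 CPM) was lower without reaching the fold, and *Mcl1* stood at 348, 324 and 326 CPM. Summed over clones, expanded WT cells thus held less *Bcl2l11* and more *Bcl2l1* RNA, and 4 of 8 members were called, 3 higher and 1 lower, beside 22.2% of 6461 genes.

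The single cells of WT included 394 naive-like cells, against 9 among the expanded cells, and their summed naive markers were at 1377 and 248 CPM. With naive-like cells left out on both sides, a choice made after seeing the data, *Bcl2l11* stood at 81.8 CPM in 513 single cells and 19.9 CPM in 287 expanded cells, and *Bcl2l1* at 34.6 and 62.9 CPM. The calls of *Bcl2a1b* (422 and 477 CPM) and *Bcl2a1d* (118 and 164 CPM) were lost. The 13 *Bcl2l11* UMIs of the expanded cells came from 10 of 19 clonotypes, with at most 3 UMIs in any of them. The 40 *Bcl2l1* UMIs came from 14 of 19, with 10 in 1 clonotype. The clonotype with the most cells in this group, 43, had 0, so that more *Bcl2l1* does not describe every expanded clone. It is not the largest clonotype of the whole WT library, which is described below. Single and expanded cells also differed in *Ifng*, at 222 and 516 CPM, and its part in these values was not tested.

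In Foxp3-negative T cells of dKO the called members were *Bcl2* and *Bcl2a1d*, lower in expanded clonotypes, and *Bcl2l1*, higher. *Bcl2* was at 181 CPM (154 to 212) in 438 single cells, 149.6 CPM (109.9 to 199) in clonotypes of 2 to 9 cells and 37.2 CPM (14.95 to 76.6) in 106 cells of 14 clonotypes of 10 or more, a log2 ratio of -2.28 (-3.62 to -1.21). Only 7 UMIs, from 4 clonotypes, stood behind the last value. *Bcl2l1* was at 32.7, 31.8 and 63.8 CPM (0.96, -0.15 to 1.98), and *Bcl2a1d* at 99.3, 153 and 37.2 CPM (-1.42, -2.77 to -0.31), while *Bcl2a1b*, its near copy, had a log2 ratio of -0.10. With the clonotype numbers of the deposited receptor tables the *Bcl2a1d* ratio was 0.22, without a call, and the *Bcl2* ratio -1.17. As a mean over clonotypes *Bcl2* was at -3.22 and *Bcl2l1* at 0.14, where its call was lost. With clones of 5 or more cells taken as expanded, *Bcl2a1d* was at -0.43 and not called. *Bcl2l11* was at 69.0, 47.7 and 58.5 CPM (-0.24, -1.32 to 0.70). Of 7 members through the filter 3 were called, 1 higher and 2 lower, beside 36.8% of 4946 genes. The expanded cells of this group held 2933 CPM of Treg-associated genes against 1601 CPM in single cells, and naive markers at 276 against 912 CPM. Of the 19 dKO clonotypes of 10 or more cells, 15 held Foxp3 T cells and 18 held T cells with Treg-associated genes. Clonotypes among the 14 of this group were thus shared with those classes. The part of these markers and of the shared clonotypes in the *Bcl2* and *Bcl2l1* values was not tested.

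Foxp3 T cells in expanded clones were frequent enough only in dKO, with 175 cells of 15 clonotypes against 296 single cells. *Bcl2* was at 50.3 CPM (36.1 to 68.2) in single cells, 41.5 CPM (23.2 to 68.4) in clonotypes of 2 to 9 cells and 29.6 CPM (14.2 to 54.4) in clonotypes of 10 or more, and *Bcl2l1* at 130.0 (106 to 157), 158 (119 to 204) and 159.7 (120.0 to 208) CPM. The intervals of the bins overlapped for both genes. *Bcl2* was called lower (-0.76, -1.93 to 0.26), the 1 call among 7 members through the filter, beside 24.7% of 6059 genes. The largest clonotype held 87 of the expanded cells, and without it the log2 ratio was -0.34 and the call was lost. *Bcl2a1b* stood at 407, 271 and 287 CPM (-0.50, -0.85 to -0.17), short of the fold. Naive markers stood at 235 CPM in single and 101 CPM in expanded cells, and Treg-associated genes at 7071 and 8437 CPM. The part of these markers in the values was not tested.

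The largest clonotype of the dKO library had 281 cells, and 203 of these were Foxp3 T cells or T cells with Treg-associated genes. In those 203 cells *Bcl2* was at 51.3 CPM (29.9 to 82.2), *Bcl2l1* at 178 CPM (136 to 229.9), *Mcl1* at 314 CPM (257 to 381) and *Bcl2l11* at 36.2 CPM (18.7 to 63.3). The largest WT clonotype had 70 cells, of which 2 were in those classes. Over all its cells *Bcl2* was at 39.4 CPM (18.0 to 74.9), *Bcl2l1* at 21.9 CPM (7.11 to 51.1) and *Bcl2l11* at 4.38 CPM (0.111 to 24.4), the last on 1 UMI. Over all cells of the largest dKO clonotype *Bcl2* was at 36.5 CPM (22.8 to 55.2), *Bcl2l1* at 138 CPM (109.6 to 171) and *Bcl2l11* at 49.7 CPM (33.5 to 71.0). Between these clones taken whole the intervals overlapped for *Bcl2* and not for *Bcl2l1* or *Bcl2l11*. The clones differ in the classes of their cells, with 0 *Foxp3* UMIs in the WT clone and 181 (300 CPM) in the dKO clone. The part of this makeup in the values was not tested.

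**Figure D5:**
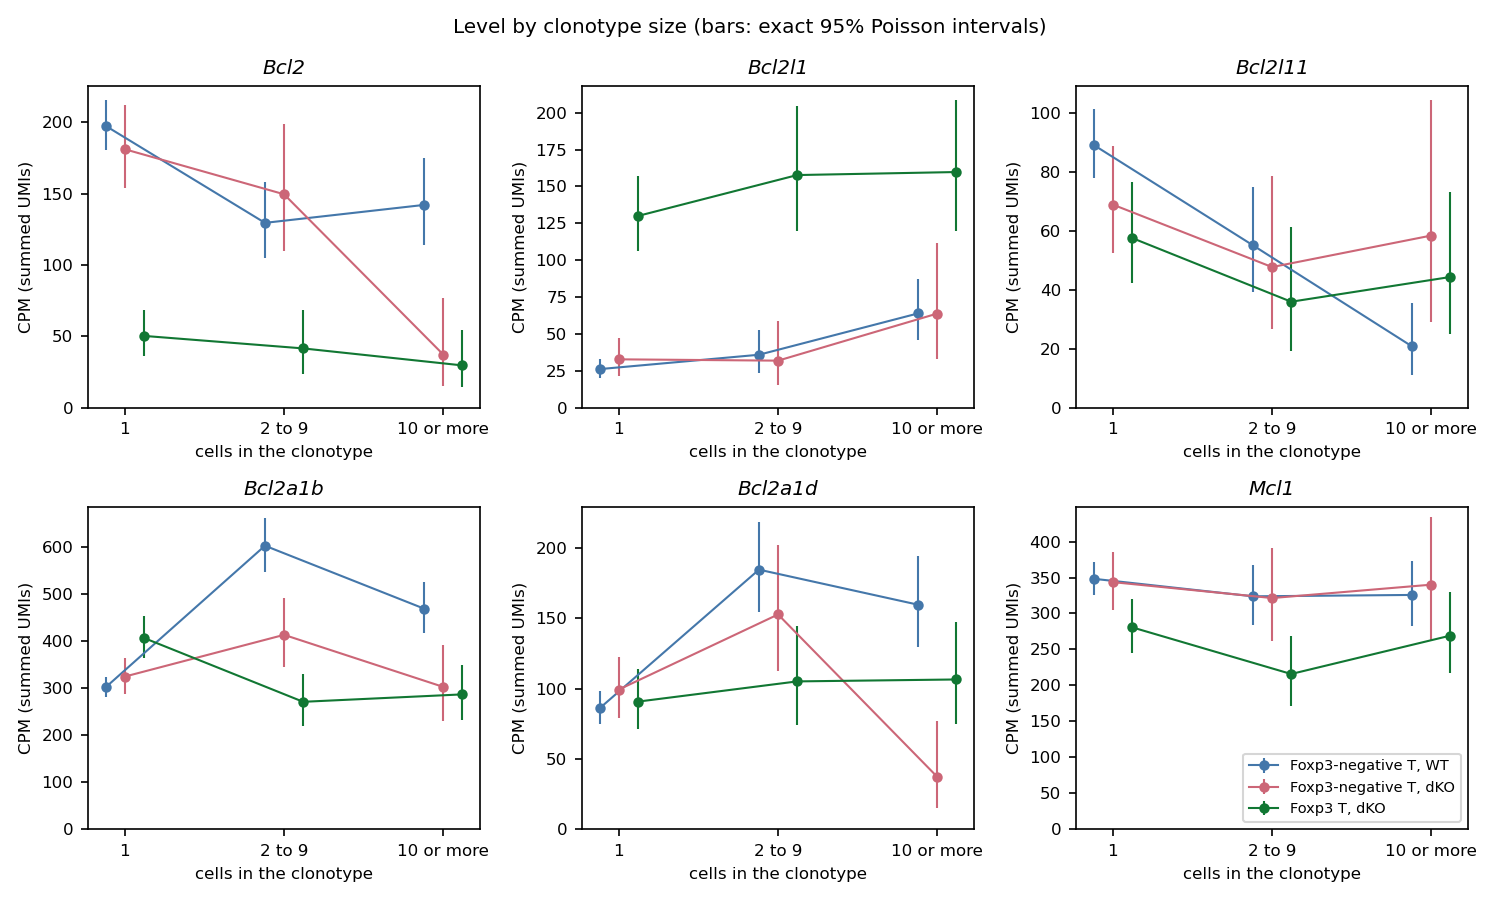
Levels (y axes, CPM of summed UMIs) of 6 genes by the number of cells in the clonotype (x axes), for Foxp3-negative T cells of each library and Foxp3 T cells of the dKO library, with exact 95% Poisson intervals. *Bcl2l11* is at 89.2 CPM in single and 20.8 CPM in expanded WT Foxp3-negative T cells, *Bcl2* at 181 and 37.2 CPM in dKO Foxp3-negative T cells, and *Bcl2l1* lies higher in Foxp3 T cells at every clone size.

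The rest of the pathway was read from lists of its genes. Of 10 other Bcl2 family genes only *Bad*, *Bak1* and *Pmaip1* passed the filter in Foxp3 against Foxp3-negative T cells, and 1 was called in WT and 2 in dKO, all higher, beside 20.4% and 19% of all genes. *Pmaip1* (Noxa), the BH3-only antagonist of Mcl1, was at 58.8 and 42.5 CPM in WT (0.47) and at 90.7 and 47.8 CPM in dKO, where it was called (0.92). *Bad*, an antagonist of Bcl2 and Bcl-xL, was called in both (1.06 and 0.70), on 17 and 53 UMIs in Foxp3 T cells. *Bak1*, which encodes the partner effector of Bax, was at -0.07 and 0.52.

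Downstream of the mitochondrion, *Apaf1*, which encodes the scaffold that cytochrome c binds, was called higher in Foxp3 than in Foxp3-negative T cells of both libraries, in which 20.4% and 19% of all genes were called. It stood at 66.4 against 39.9 CPM in WT (0.73) and at 84.7 against 43.1 CPM in dKO (0.98). *Xiap*, which encodes a caspase inhibitor, was called in dKO but not WT (0.54 and 0.67). *Cycs*, which encodes cytochrome c, was at -0.16 and 0.03. These genes belong to a longer list, whose tally is not given because some of its genes are not reported here. The values of the named genes do not stand for the list.

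Of the 8 genes of the survival cytokine receptor list, 1 was called higher in Foxp3 T cells of WT, and 2 higher and 1 lower in dKO, beside 20.4% and 19% of all genes called in either direction. *Il2ra*, which encodes the alpha chain of the interleukin 2 receptor, was at 305 against 36.4 CPM in WT and 202 against 44.2 CPM in dKO. Since cells with several Treg-associated genes, *Il2ra* among them, were kept out of the Foxp3-negative group, the gate has a part in this value. *Il7r*, whose product sustains *Bcl2* in resting T cells, was at 482 against 568 CPM in WT (-0.24) and at 279 against 601 CPM in dKO (-1.11). Between libraries *Il7r* was called lower in dKO Foxp3 T cells (-0.79) and was not called in Foxp3-negative T cells (0.08). *Stat5b* (-0.72) and *Il2ra* (-0.59) were also called lower and *Jak3* (1.33) higher in dKO Foxp3 T cells, so 4 of 8 genes of this list were called, beside 27.4% of all genes.

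In the death receptor list 7 of 8 genes passed the filter between libraries in Foxp3 T cells, and 2 were called, close to the 27.4% of all genes. *Fasl* was at 66.4 CPM in WT and 16.7 CPM in dKO (-1.99) and *Fas* at 36.0 and 66.2 CPM (0.88). Between Foxp3 and Foxp3-negative T cells 7 genes of this list passed the filter in each library. In WT 3 were called higher and 1 lower, and in dKO 1 higher and 1 lower, beside 20.4% and 19% of all genes. Of 12 transcription factors and their targets, *Cdkn1a* (0.86), a p53 target, was called higher and *Foxo3* (-0.74) lower in dKO Foxp3 T cells, a smaller share than the 27.4% of all genes. *Foxo3* was also called lower in dKO Foxp3-negative T cells (-0.84). *Rel*, which encodes an NF-κB subunit, was higher in Foxp3 than in Foxp3-negative T cells of both libraries (1.33 and 0.78). In that comparison 3 of the 12 transcription factors and targets were called higher and 1 lower in WT, and 1 higher in dKO, beside 20.4% and 19% of all genes.

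In expanded against single-cell Foxp3-negative clonotypes the death receptor list had 1 gene called higher and none lower in WT, and 1 higher and 2 lower in dKO, of 7 through the filter in each, beside 22.2% and 36.8% of all genes. *Fasl* was the higher one in both (1.07 and 1.34), and *Ripk1* (-0.66) and *Birc3* (-0.88) were the lower ones in dKO. Of the 8 survival cytokine receptor genes 1 was called lower in WT, and 1 higher and 4 lower in dKO, with *Il7r* lower in both (-0.63 and -1.90). Of the transcription factors and their targets 1 of 12 was called higher and 1 lower in WT, and 1 of 10 higher and 3 lower in dKO. *Pmaip1*, of the other Bcl2 family genes, was called higher in both (1.43 and 1.18). *Apaf1* (0.38 and 1.08) and *Xiap* (-0.13 and 0.98) were called higher in dKO and not called in WT, a difference that could not be tested. The tally of the list that holds *Apaf1* and *Xiap* is not given here either, for the same reason as above.

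Over the 20 profiles made by the 10 classes and 2 libraries, the 3 genes with the most similar levels were named for each member by Pearson correlation of log2(CPM + 1) among 5702 genes. The profiles share libraries and depth, and the values are descriptions. *Bcl2a1b* was closest to *Bcl2a1d* (0.98), *Plk3* (0.95) and *Rab8b* (0.95), and *Bcl2a1d* to *Bcl2a1b*, *Slc16a6* (0.94) and *Dok2* (0.93). *Bcl2l1* was closest to *Hilpda* (0.91), *Pglyrp1* (0.90) and *Gm13684* (0.88), and *Bcl2* to *Nup153* (0.86), *Chn2* (0.86) and *Atn1* (0.85). *Bcl2l11* was closest to *Plaur* (0.87), *Ikbkb* (0.84) and *Mpeg1* (0.83), and *Mcl1* to *Igsf6* (0.83), *C1qa* (0.82) and *Itga9* (0.81). *Bax* was closest to *Vps29* (0.84), *Calr* (0.77) and *Aldoa* (0.76), and *Bbc3* to *Ccdc117* (0.80), *Zzef1* (0.74) and *Gpr18* (0.74). Among the members themselves, *Bcl2l11* ran with *Mcl1* (0.68) and against *Bcl2a1d* (-0.63), and *Bcl2* and *Bcl2l1* were weakly related (0.35).

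The RefSeq promoters of the members (250 bases before to 50 after each start site, GRCm38.p6, several for some genes) were found for all 8 and differed in base composition. That of *Bcl2* was 76% G or C with 44 CpG, those of *Bcl2l11* 71% and 74%, and that of *Mcl1* 65.7%. Those of *Bcl2a1b* (46.7%, 4 CpG) and *Bcl2a1d* (44.3%, 4 CpG) were below the medians over 32817 promoters, 52.7% and 7 CpG. AAAGGTCA, the NBRE motif that Nr4a receptors bind as monomers, was searched on both strands, was found in no member promoter and occurred in 1.51% of all promoters. A κB consensus match was found in 1 *Bcl2l1* and 1 *Bbc3* promoter and in 8.46% of all. The FOX core TGTTTAC was found in 1 *Bcl2l11* and 1 *Bbc3* promoter and in 3.65% of all. GGAAGT, an Ets core, began 146 bases before the start site of *Bcl2a1b* and 102 bases before that of *Bcl2a1d*, without overlap with the AP-1 match, was also found for *Bcl2l1* and *Mcl1*, and occurred in 23.8% of all promoters. These matches are letters in a window and say nothing of binding.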

How the data were processed

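Hepatic CD4+ T cells of 2 pooled male mice per genotype gave 1 single-cell 5′ RNA library each (10x Genomics 5′ kit, version 2) with a matched T cell receptor library. The authors mapped the reads with Cell Ranger 7.0.1 to mm10, and the deposited values are raw UMI counts per gene and cell, not normalized. Whether introns were counted is not given in the sources used here. The deposited receptor tables list productive contigs with UMI counts, which were used to take the leading TRA and TRB chain of a cell (V gene, CDR3 and J gene). The deposited barcodes and gene names are labels, not measurements.

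The study's filters (more than 200 genes and under 5% mitochondrial counts) left 10556 of 10602 and 17462 of 17645 cells. Doublets were not removed in the main values. Cells with 2 or more TRB chains, or among the highest Scrublet scores at 0.8 percent per 1000 cells, were marked (997 and 2487) and left out as an alternative. Cells were gated in a fixed order, other lineages first, then T cells under 8% ribosomal protein counts, cycling, *Foxp3*, *Il17*, *Ifng*, naive-like and Treg-associated genes, and classes under 50 cells in a library were not described. UMIs were summed per class and library and divided by all UMIs of the class. Intervals are at the 95% level (Poisson for CPM, conditional binomial for ratios, Clopper-Pearson for shares). Named genes were the 8 members, list genes by counts with values for some, and the 3 genes most like each member among genes with at least 50 CPM in 1 profile. The members and lists were chosen with earlier results of these data known. Alternatives changed the barcodes, scaling (TMM factors, edgeR 4.0.16 in R 4.3.3), weighting, gates, doublets, clonotype definition, fold and gene filter. The scripts were tested on simulated data. Some genes of the lists are not reported here. Python 3.11.15, numpy 2.4.6, pandas 2.3.3, scipy 1.17.1 and scanpy 1.11.5 were used.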

Additional observations from a re-analysis of the deposited data

Results flagged for a closer look

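In 3 cases the values of a gene under the same contrast lay on opposite sides of no difference, with intervals that did not hold 0. The log2 ratio of *Mcl1*, dKO over WT, was -0.12 in plasmacytoid dendritic-like cells and 0.23 in myeloid cells. That of *Bcl2l11* was -0.98 in cycling T cells without *Foxp3* and 1.66 in the receptor-negative cells with ILC3 genes, the latter on 5 and 13 UMIs. In Foxp3-negative T cells the log2 ratio of *Bcl2a1d* in clonotypes of 10 or more cells over single-cell clonotypes was 0.89 in WT and -1.42 in dKO, where 7 UMIs stood behind the expanded cells. The dKO value was 0.22 with the deposited clonotype numbers and -0.43 with clones of 5 or more cells, and the WT value 0.48 with naive-like T cells left out, none of them called. None of these differences was tested, because each genotype is 1 library.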

How the results depend on the processing

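Of 607 values of single members under an alternative, 579 stayed within the counting interval of the main value, 27 moved beyond it and 1 that had been called changed sign. Other values, which had not been called, also changed sign, most of them inside that interval. The called one was *Bcl2a1d* in expanded against single dKO Foxp3-negative clonotypes, at 0.22 with the clonotype numbers of the contig tables. *Bbc3* gave no ratio there without marked doublets, since a group was at 0. For dKO over WT in Foxp3 T cells the count of 2 members called was 1, *Bcl2*, with the mean of each cell's CPM, with T cells taken by a *Cd3* UMI, with the mean over clonotypes and at 2-fold, 4 with at least 2 *Foxp3* UMIs, and 3 with TMM scaling, where *Bax* passed the fold. Over the alternatives *Bcl2* ranged from -2.01 to -0.87 and *Bcl2l1* from 0.44 to 0.78. In Foxp3-negative T cells the count of 0, beside 9.7% of all genes, became 1 when T cells with Treg-associated genes were included, *Bcl2l1* at 0.93, beside 14.3%. For Foxp3 over Foxp3-negative T cells in WT the count of 3 became 1 at 2-fold, the *Bcl2* call was lost with the mean over clonotypes and the *Bbc3* call under 6 alternatives, and over the alternatives *Bcl2* ranged from -1.38 to -0.54 and *Bcl2l1* from 0.83 to 1.82. In dKO the ranges were -3.25 to -1.71 and 0.87 to 2.15. For expanded dKO Foxp3 T cells the count of 1 became 2 with at least 2 *Foxp3* UMIs or no gene filter, and 0 with the mean over clonotypes, without the largest clonotype or at 2-fold. For expanded WT Foxp3-negative T cells the count of 4 became 2 at 2-fold and with naive-like T cells left out, and *Bcl2l11* stayed between -2.27 and -1.47. The cause of these changes was not tested. Including cells with Treg-associated genes and leaving out naive-like cells were chosen after seeing the data. No paired analysis was possible because each genotype is 1 library, and for the same reason no replicate could be left out. Low counts limit *Bbc3* in every T cell class.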
